A study of Mus musculus with 9 samples.

Results

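Rab GTPases are the largest family of small GTPases and direct traffic between the membranes of a cell. The genes described here are all those whose mouse symbol is Rab, a number and an optional letter, such as Rab3a or Rab27b, with effectors and regulators left out. They were 59 of the 24181 genes counted, all protein coding, and 56 of them had enough counts to be tested. The study sequenced mRNA of purified primary mouse cultures of 3 cell types, as 3 biological replicate experiments each, beside work on nucleosome spacing in neurons and glia. DRG neurons, the sensory neurons of the dorsal root ganglia, came from E13.5 embryos and had spent about 2 weeks in culture. OPC, the oligodendrocyte progenitor cells that give rise to myelin-forming cells, came from the cortex of mice of either sex at postnatal day 6 to 9 and had been cultured for 6 to 7 days. Astrocytes came from the cortex of mice of either sex at postnatal day 1 to 3 and were used when confluent, after some 21 days. The labels name no strain, transgene or treatment for any group. Donor age, tissue of origin and time in culture differ with the cell type and cannot be told apart from it.

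A Rab protein switches between an inactive form bound to GDP, held in the cytosol by a GDP dissociation inhibitor (GDI), and an active form bound to GTP that sits on a membrane. Guanine nucleotide exchange factors (GEFs) load the GTP and so set where the Rab becomes active, and GTPase-activating proteins (GAPs) end the signal. The active form recruits effectors, which include motor adaptors, tethers and parts of the exocytosis machinery. Each Rab works on its own set of membranes, and many come as close paralogs that arose by gene duplication. In neurons the family is best known for synaptic vesicle release (Rab3), for transport of endosomes along axons (Rab5, Rab7 and Rab11) and for human disease genes such as RAB39B. In all that follows, levels are given as CPM, read counts scaled to a common library total, and differences as log2 fold changes (log2FC) with their standard error. A gene passed a comparison when its adjusted p in edgeR's quasi-likelihood test, corrected over the 14848 genes tested, was under 0.05.

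Between 30710093 and 53594210 reads were assigned per library. Pan-neuronal markers summed to 19858 to 29330 CPM in DRG neurons, 290 to 307 CPM in OPC and 143 to 175 CPM in astrocytes. OPC markers summed to 13.2 to 29.1 CPM in DRG neurons, 5101 to 6860 CPM in OPC and 341 to 1311 CPM in astrocytes, and astrocyte markers to 304 to 793, 928 to 1158 and 5763 to 7039 CPM in the same order. Each culture thus had the highest sum for the markers of its own label, but single markers departed from this. Lhfpl3, an OPC marker, had 1.83 to 4.21 CPM in DRG neurons, against 0.0481 to 0.163 CPM in OPC. Aldoc, an astrocyte marker, had 641, 786 and 291 CPM in DRG neurons, against 313 to 404 CPM in astrocytes. The OPC marker C1ql1 and the astrocyte marker Slc1a2 overlapped between OPC and astrocytes. Astrocytes replicate 1 stood apart, with 2879 CPM of 12 summed microglia markers, against 498 and 464 CPM in replicates 2 and 3, and with 427 CPM of 8 fibroblast and mural markers, against 4965 and 6239 CPM. Acta2 alone gave 413, 4639 and 5997.5 CPM of the fibroblast and mural sums, though every marker of that list was lowest in replicate 1. The same list summed to 240 to 475 CPM in DRG neurons and 1.36 to 2.07 CPM in OPC. In OPC the microglia markers summed to 18.8, 60 and 215.1 CPM in replicates 1 to 3, and in DRG neurons to 9.94 to 19.4 CPM. In such bulk libraries fewer cells of a type and less RNA per cell cannot be told apart.

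Rab genes took a larger share of the counts in DRG neurons than in either glial culture. The 59 genes summed to 9125, 9891 and 10479 CPM in DRG neurons, to 6236, 5348 and 5709 CPM in OPC, and to 5330, 5319 and 5367 CPM in astrocytes. The DRG libraries lay above all others, and the ranges of OPC and astrocytes overlapped. These sums were not tested. Much of that excess came from 3 genes with high levels in DRG neurons, Rab6b, Rab3c and Rab3d: without these and Rab31, the most abundant in glia, the sum was 5201 ± 301 CPM in DRG neurons, 4504 ± 437 CPM in OPC and 3967 ± 196 CPM in astrocytes (SD, n = 3 each). On a scale that corrects for transcript length, CPM per kilobase over the 50 Rab genes with 1 annotated transcript, Rab6b led in DRG neurons at 456 ± 10.9, ahead of Rab2a at 205 ± 20 and Rab3c at 197 ± 39.4, which overlapped. Rab31 led on this scale in OPC, at 307 ± 40, and in astrocytes, at 383 ± 57.5, with Rab5c next in astrocytes, at 153 ± 16.3. In OPC Rab5c, at 164 ± 25.3, and Rab1b, at 161 ± 41.6, overlapped.

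**Figure D1:**
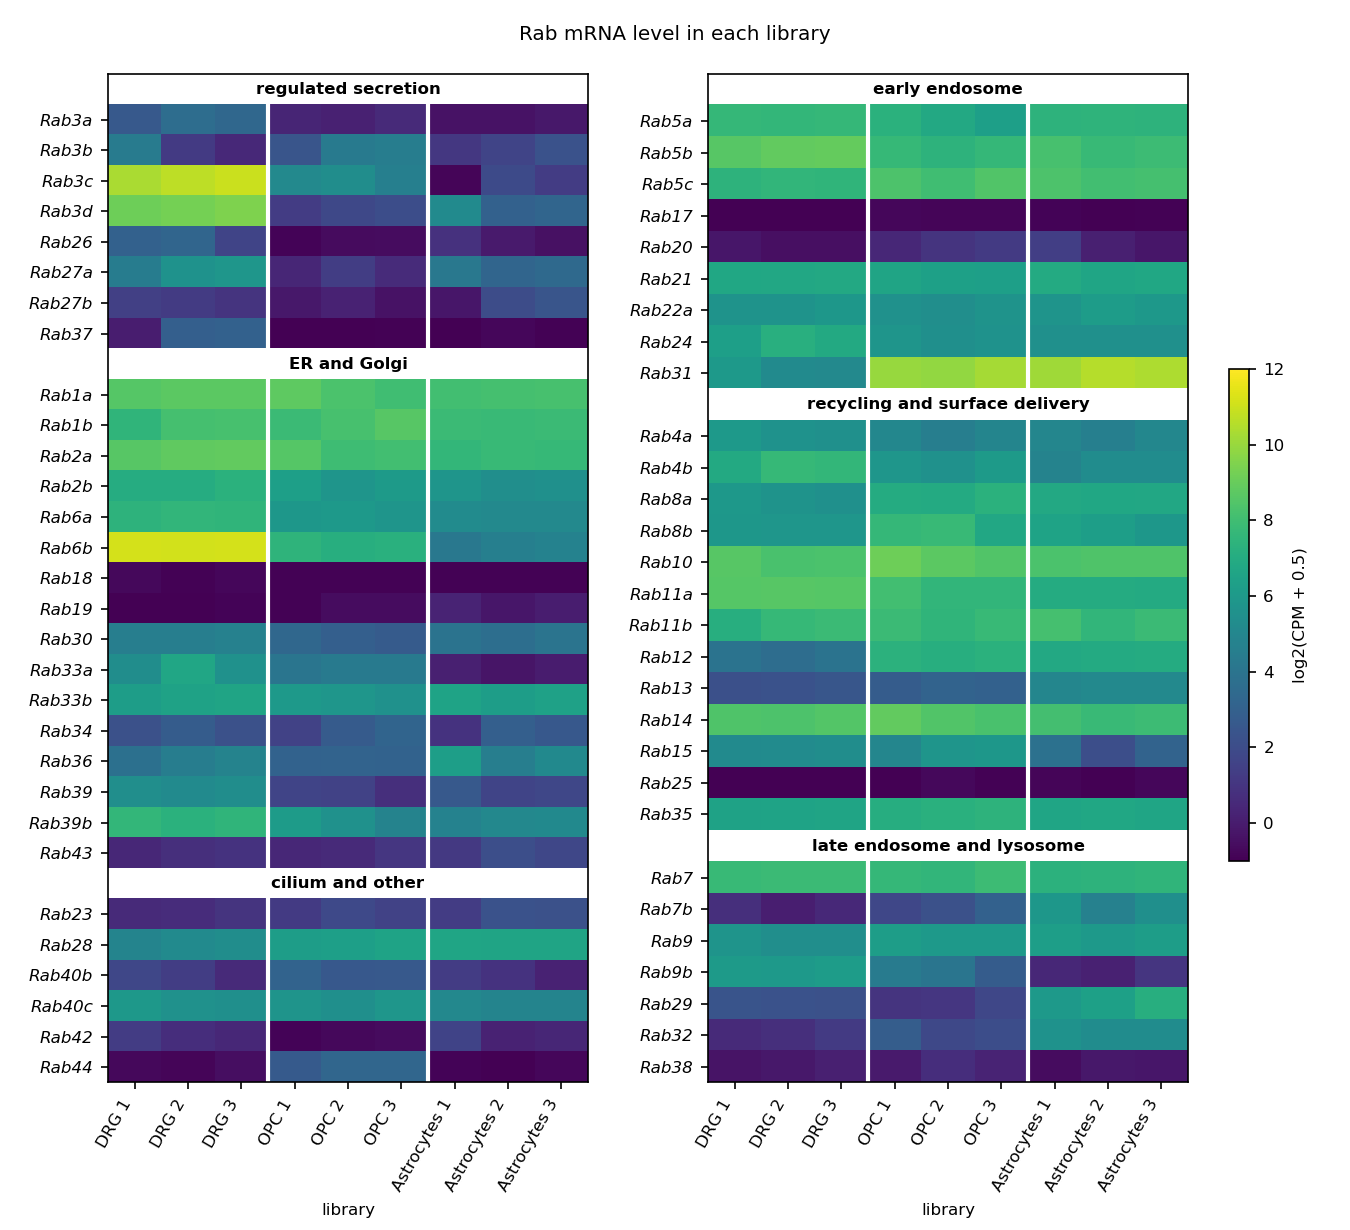
Level of each of the 59 Rab genes in each of the 9 libraries, as log2 of CPM plus 0.5 on the colour scale, grouped by the membranes on which the proteins work. The broad housekeeping Rabs such as Rab1a and Rab14 are bright in all libraries, while Rab6b, Rab3c and Rab3d are brightest in DRG neurons and Rab31 in both glial cultures.

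Of the 56 Rab genes tested, 25 were higher in DRG neurons than in OPC and 15 were lower, while 28.4% of all genes tested were called higher and 31.1% lower (59.5% in all). Against astrocytes, 24 were higher in DRG neurons and 15 lower, beside 27.4% and 32.8% of all genes (60.2% in all). Between OPC and astrocytes 15 were higher in OPC and 14 lower, beside 26.3% and 25.5% of all genes (51.8% in all). The balance of this last comparison turned with the scaling, to 14 higher and 17 lower with RLE size factors, 14 and 18 with library size alone, and 15 and 19 in DESeq2. That of all 14848 genes tested turned as well, to 3431 higher and 4017 lower, 3425 and 4041, and 3833 and 4307 in the same order. With library size alone, 20 Rab genes were higher and 18 lower in DRG neurons than astrocytes. Of all 14848 genes, 3376 were then higher and 5736 lower. Differences of at least 2-fold were called higher in DRG neurons for 20 Rab genes against OPC (25.0% of all genes) and lower for 11 (24.9%). Against astrocytes they were higher for 18 (22.1%) and lower for 13 (28.2%). OPC were higher than astrocytes by this measure for 9 (18.1%) and lower for 12 (22.9%). The median log2 fold change of the Rab genes was 0.22 for DRG neurons over OPC, 0.44 for DRG neurons over astrocytes and 0.18 for OPC over astrocytes, and that of all genes tested was −0.08, −0.13 and 0.09. The 3 comparisons share libraries in pairs, so their counts are not independent of each other.

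**Figure D2:**
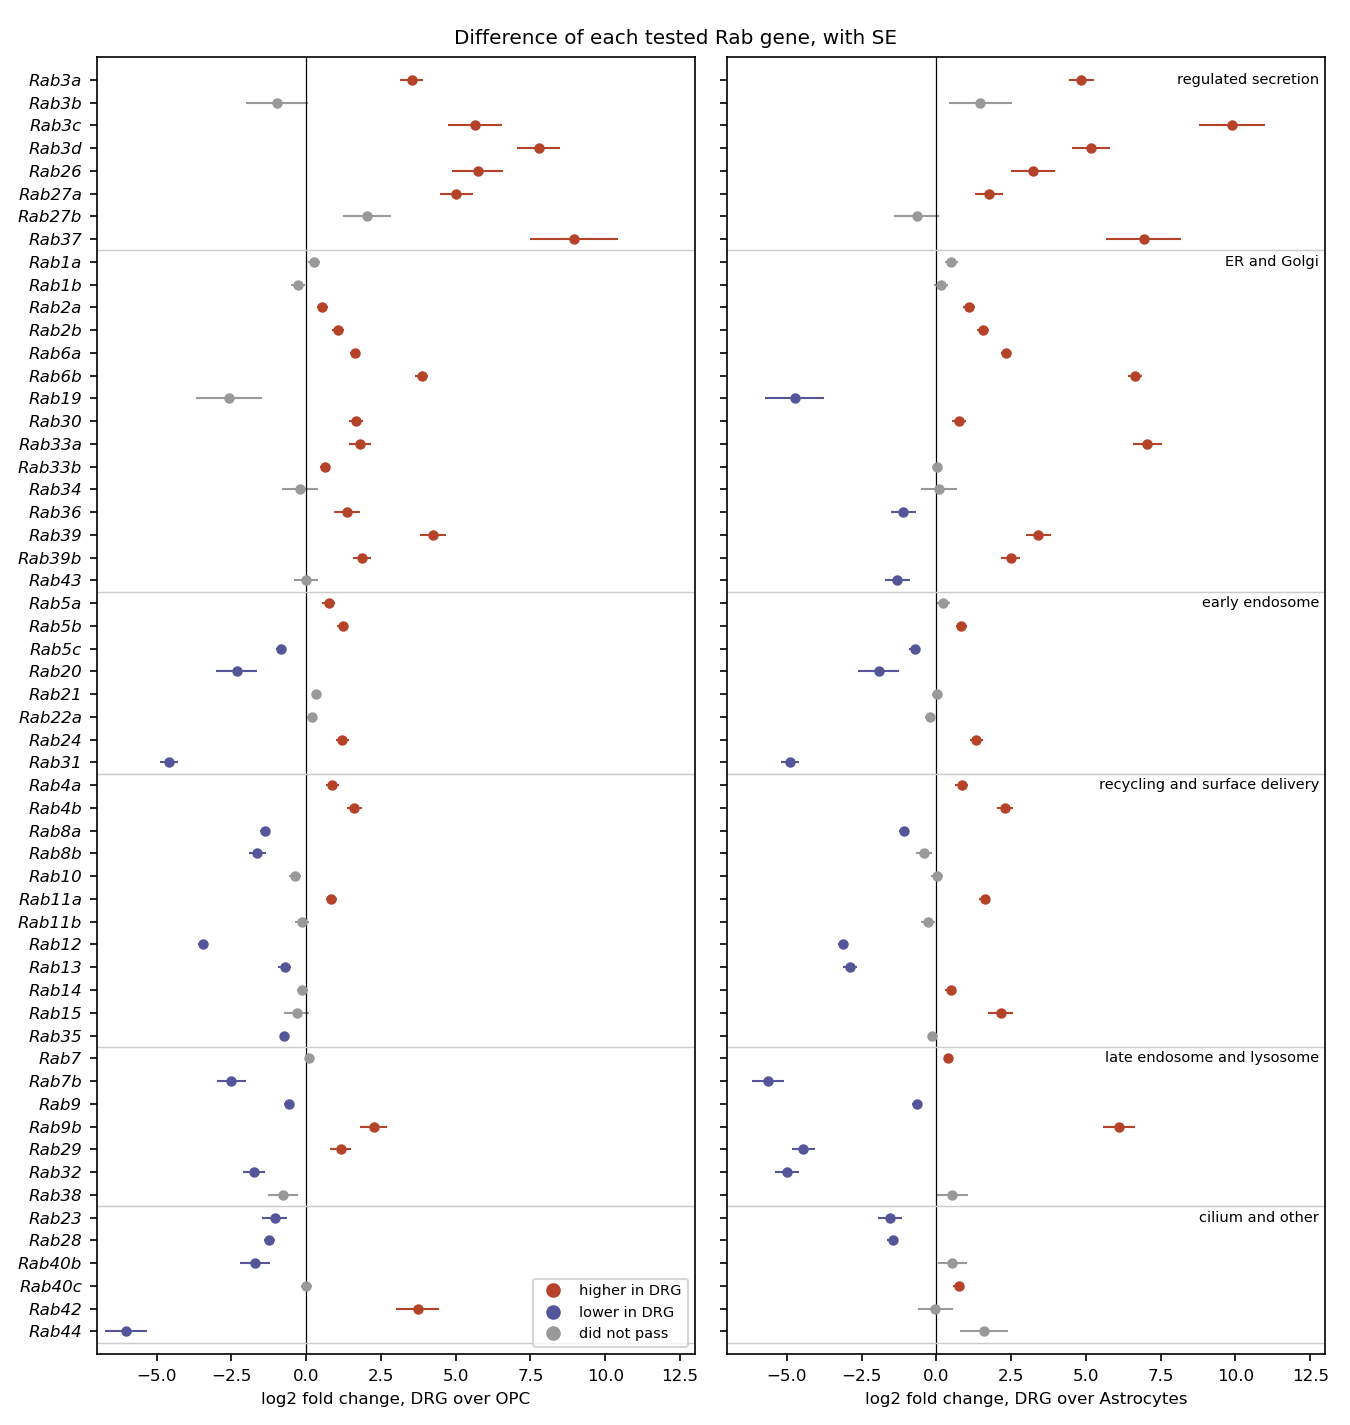
Log2 fold change of each of the 56 Rab genes tested, DRG neurons over OPC on the left and DRG neurons over astrocytes on the right, with bars for the standard error and colour for the test result. The 8 genes of regulated secretion hold 6 that are higher in DRG neurons in each panel, while Rab31, Rab12, Rab7b and Rab32 lie left of 0 in both. Of all genes tested, 28.4% were called higher in the left comparison and 27.4% in the right.

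The Rabs of regulated secretion, which prime and tether vesicles and granules for release, were mostly higher in DRG neurons. Of the 8 tested, 6 were higher in DRG neurons than in OPC, and 6 than in astrocytes: Rab3a, Rab3c, Rab3d, Rab26, Rab27a and Rab37. That is 75.0% each time, beside 28.4% and 27.4% of all genes called higher. In either direction 59.5% and 60.2% of all genes were called. Rab3c, a synaptic vesicle Rab, had 1327, 1685 and 1991 CPM in DRG neurons and 34.5, 41.6 and 24.1 CPM in OPC. Astrocytes had 0.0752, 3.28 and 1.96 CPM. No library of one cell type reached the range of another, and the differences passed for DRG neurons over OPC (log2FC 5.64 ± 0.91, adjusted p = 0.000629), DRG neurons over astrocytes (log2FC 9.89 ± 1.10, adjusted p = 7.4e-05) and OPC over astrocytes (log2FC 4.25 ± 0.87, adjusted p = 0.00324). The low counts in astrocytes make the size uncertain: without Astrocytes replicate 1 the log2 fold change of DRG neurons over astrocytes was 9.30 and without replicate 2 it was 10.73, and without replicate 2 that of OPC over astrocytes was 5.09. Rab3d, known from secretory granules of exocrine and other cells, had 569, 618 and 717 CPM in DRG neurons and 1.97, 3.03 and 3.63 CPM in OPC. Astrocytes had 36.2, 7.57 and 8.98 CPM. DRG neurons exceeded OPC (log2FC 7.78 ± 0.72, adjusted p = 2.8e-05) and astrocytes (log2FC 5.17 ± 0.63, adjusted p = 0.000130), and OPC lay below astrocytes (log2FC −2.61 ± 0.57, adjusted p = 0.00464). Astrocytes replicate 1 was the highest of its group, and without it the last 2 values became 6.25 and −1.52.

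Rab3a, the main Rab of brain synaptic vesicles, had 5.75, 12 and 9.73 CPM in DRG neurons and 0.782, 0.651 and 0.938 CPM in OPC. Astrocytes had 0.282, 0.285 and 0.387 CPM. These values count only reads that are specific to 1 of its 2 annotated transcripts, 1 of which had no reads in any library, so they understate its mRNA and cannot be set beside those of Rab3c or Rab3d. Its groups did not overlap, and it was higher in DRG neurons than OPC (log2FC 3.53 ± 0.39, adjusted p = 7.0e-05) and astrocytes (log2FC 4.84 ± 0.42, adjusted p = 1.8e-05). It was also higher in OPC than astrocytes (log2FC 1.31 ± 0.38, adjusted p = 0.0174), a call that ended when OPC replicate 3 or Astrocytes replicate 2 was left out (adjusted p = 0.0532 to 0.0734). Rab3b, the remaining paralog, had 20.8, 1.85 and 0.904 CPM in DRG neurons and 4.92, 19.2 and 21.9 CPM in OPC. Astrocytes had 1.62, 2.66 and 4.26 CPM. DRG replicate 1 stood far above replicates 2 and 3, and the DRG range overlapped both others. OPC lay above astrocytes in every library, and the gene passed no comparison (log2FC −0.97 ± 1.04, adjusted p = 0.443 for DRG neurons over OPC, log2FC 1.46 ± 1.06, adjusted p = 0.259 for DRG neurons over astrocytes and log2FC 2.43 ± 1.09, adjusted p = 0.0891 for OPC over astrocytes). Without DRG replicate 1, DRG neurons lay below OPC (log2FC −3.47, adjusted p = 0.00658), OPC lay above astrocytes (2.44, adjusted p = 0.0134), and the value of DRG neurons over astrocytes changed sign to −1.03 (adjusted p = 0.244). DESeq2 called it higher in OPC than astrocytes with all libraries (log2FC 2.35, adjusted p = 0.0335).

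To see whether paralogs differ in their balance between cell types, the log2 ratio of their levels, each as CPM plus 0.5, was taken in every library and tested with an exact permutation test over the 280 ways to split 9 libraries into 3 groups of 3. The ratios are of reads, not corrected for length, and serve only to compare cultures. Of 21 pairs tested, 14 passed after adjustment over the pairs. For Rab3a over Rab3c the ratio was −7.47 ± 0.35 (DRG neurons), −4.69 ± 0.55 (OPC), and −1.10 ± 1.39 (astrocytes). For Rab3a over Rab3d it was −6.09 ± 0.44 (DRG neurons), −1.36 ± 0.36 (OPC), and −4.11 ± 1.25 (astrocytes). Both reached the smallest p the design allows (exact permutation p = 0.00357, adjusted p = 0.00833). Rab3a over Rab3b also passed (exact permutation p = 0.0214, adjusted p = 0.0346), at 1.17 ± 2.56 (DRG neurons), −3.38 ± 1.13 (OPC), and −1.96 ± 0.50 (astrocytes), and this call ended when any 1 of 7 libraries was left out, with adjusted p from 0.0563 to 0.123, and when 2 in place of 0.5 was added to the CPM (exact permutation p = 0.0750, adjusted p = 0.0926). The libraries were DRG replicate 3 and every OPC and astrocyte library. A change in the transcripts used by Rab3a would move all 3 ratios as well.

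Rab27a, which carries melanosomes and lytic granules to the cell surface, had 21.9, 48.4 and 56.0 CPM in DRG neurons and 0.827, 2.04 and 1.01 CPM in OPC. Astrocytes had 18.0, 8.86 and 10.5 CPM. DRG neurons lay above astrocytes and astrocytes above OPC in every library (log2FC 5.02 ± 0.54, adjusted p = 6.6e-05 for DRG neurons over OPC, log2FC 1.75 ± 0.47, adjusted p = 0.00973 for DRG neurons over astrocytes and log2FC −3.27 ± 0.50, adjusted p = 0.000751 for OPC over astrocytes). Rab26, a Rab of secretory granules and synaptic vesicles, had 7.72, 9.07 and 2.71 CPM in DRG neurons and 0.0447, 0.142 and 0.168 CPM in OPC. Astrocytes had 1.34, 0.451 and 0.249 CPM. The gene was more abundant in DRG neurons than OPC (log2FC 5.74 ± 0.85, adjusted p = 0.000389) and astrocytes (log2FC 3.24 ± 0.73, adjusted p = 0.00411; 4.19 without Astrocytes replicate 1). OPC held 16 Rab26 reads in all, which makes the size of the differences from OPC uncertain. Rab26 was lower in OPC than astrocytes (log2FC −2.51 ± 0.79, adjusted p = 0.0245). That call ended when OPC replicate 1 or 2 or Astrocytes replicate 1 was left out (adjusted p = 0.0613 to 0.105), with a value of −1.55 without Astrocytes replicate 1. Its relative Rab37, described on mast cell granules, had 0.541, 7.12 and 7.67 CPM in DRG neurons and 0, 0 and 0.0241 CPM in OPC. Astrocytes had 0, 0.0950 and 0.0276 CPM. DRG replicates 2 and 3 were over 10 times replicate 1, and OPC held 1 read in all, so the ratio of DRG neurons over OPC was 761 with a 95% counting interval of 136 to 30122. The difference passed against OPC (log2FC 8.95 ± 1.48, adjusted p = 0.000716; 10.87 without OPC replicate 3) and against astrocytes (log2FC 6.93 ± 1.26, adjusted p = 0.00126), where the log2 fold change was 6.27 without Astrocytes replicate 1 and 8.47 without replicate 2.

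Rab27b, the paralog of Rab27a found on neuronal and endocrine granules, had 2.23, 1.87 and 1.42 CPM in DRG neurons and 0.402, 0.672 and 0.265 CPM in OPC. Astrocytes had 0.357, 3.54 and 4.81 CPM. Astrocytes replicate 1 was far below replicates 2 and 3 and the ranges of DRG neurons and astrocytes overlapped. Neither comparison with DRG neurons passed (log2FC 2.03 ± 0.79, adjusted p = 0.0510 over OPC and log2FC −0.65 ± 0.75, adjusted p = 0.476 over astrocytes). Without Astrocytes replicate 1 both passed, at 2.02 over OPC (adjusted p = 0.00278) and −1.19 over astrocytes (adjusted p = 0.0416). DESeq2 called DRG neurons over OPC with all libraries (log2FC 2.22, adjusted p = 0.00910). It was lower in OPC than astrocytes (log2FC −2.68 ± 0.81, adjusted p = 0.0204). That call ended when OPC replicate 1 or 3 or Astrocytes replicate 3 was left out (adjusted p = 0.0618 to 0.0716). Its 2 annotated transcripts differed in opposite directions between DRG neurons and astrocytes (log2FC 2.83 ± 0.59, adjusted p = 0.00269, and log2FC −2.63 ± 1.02, adjusted p = 0.0484). Reads specific to the first averaged 1.40 ± 0.217 CPM in DRG neurons, 0.388 ± 0.189 CPM in OPC and 0.199 ± 0.128 CPM in astrocytes, and reads specific to the second 0.444 ± 0.349, 0.0580 ± 0.0523 and 2.70 ± 2.17 CPM in the same order. The balance of the 2 passed the exact permutation test (p = 0.0107, adjusted p = 0.0161 over 3 genes, a test chosen after the values were seen). Fibroblast and mural markers were likewise low in Astrocytes replicate 1 and high in replicates 2 and 3, as given above, and their part in the result was not tested.

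Because Rab3c and Rab3d are so unequal between neurons and glia, their promoters are shown, each 300 bases from RefSeq on GRCm38.p6, from 250 before to 50 after the annotated start. Capitals mark the GC box GGGCGG and the CCAAT box CCAAT on either strand, 2 short motifs of many promoters. Rab3c lies at chr13:110280157-110280456 on the minus strand and Rab3d at chr9:21918134-21918433 on the minus strand.
Rab3c: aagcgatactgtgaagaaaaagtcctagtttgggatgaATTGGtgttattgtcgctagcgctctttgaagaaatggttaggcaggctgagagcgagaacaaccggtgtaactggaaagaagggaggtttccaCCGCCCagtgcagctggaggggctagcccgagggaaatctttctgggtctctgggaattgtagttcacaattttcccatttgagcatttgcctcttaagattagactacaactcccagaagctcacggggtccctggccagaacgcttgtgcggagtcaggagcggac
Rab3d: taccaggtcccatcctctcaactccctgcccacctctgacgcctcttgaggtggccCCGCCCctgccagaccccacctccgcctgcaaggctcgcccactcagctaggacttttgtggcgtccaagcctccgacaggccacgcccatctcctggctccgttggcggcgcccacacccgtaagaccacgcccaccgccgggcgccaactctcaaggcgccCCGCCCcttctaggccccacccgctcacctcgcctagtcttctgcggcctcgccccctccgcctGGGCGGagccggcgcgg
The Rab3c window held 11 CpG dinucleotides, 1 GC box and 1 CCAAT box, and the Rab3d window 26 CpG dinucleotides and 3 GC boxes.

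The Rabs of the endoplasmic reticulum and Golgi included the most abundant Rab mRNA of DRG neurons, Rab6b. Of 15 tested, 10 were higher in DRG neurons than in OPC and 5 did not pass. Against astrocytes 8 were higher in DRG neurons and 3 lower, and between OPC and astrocytes 4 were higher in OPC and 5 lower. Rab6b, the Rab6 of the nervous system, acts in transport between Golgi and endoplasmic reticulum with dynein adaptors. It had 2309, 2222 and 2321 CPM in DRG neurons and 177, 142 and 151 CPM in OPC. Astrocytes had 18.2, 23.7 and 26.6 CPM. Each DRG library lay far above all OPC libraries and each OPC library above all astrocyte libraries. DRG neurons held 14.6-fold more than OPC (log2FC 3.87 ± 0.21, adjusted p = 2.7e-06), 100.1-fold more than astrocytes (log2FC 6.64 ± 0.24, adjusted p = 4.2e-07), and OPC 6.87-fold more than astrocytes (log2FC 2.78 ± 0.20, adjusted p = 1.9e-05). The broadly expressed paralog Rab6a had 169, 190.1 and 184 CPM in DRG neurons and 59.2, 63.5 and 53.5 CPM in OPC. Astrocytes had 38.6, 34.7 and 34.8 CPM. It showed the same order with smaller differences (log2FC 1.62 ± 0.15, adjusted p = 2.5e-05 for DRG neurons over OPC, log2FC 2.33 ± 0.15, adjusted p = 3.8e-06 for DRG neurons over astrocytes and log2FC 0.70 ± 0.14, adjusted p = 0.00324 for OPC over astrocytes). The ratio of Rab6b over Rab6a was 3.66 ± 0.11 (DRG neurons), 1.41 ± 0.22 (OPC), and −0.66 ± 0.36 (astrocytes), so its order ran from DRG neurons through OPC to astrocytes (exact permutation p = 0.00357, adjusted p = 0.00833). The values of Rab6a count only transcript-specific reads and so understate its mRNA. A change in the transcripts it uses would move this ratio as well.

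The promoter of Rab6b, at chr9:103111824-103112123 on the plus strand, is shown in the same way beside that of Rab6a, at chr7:100607336-100607635 on the plus strand, since the balance of the 2 paralogs differs between the cultures.
Rab6b: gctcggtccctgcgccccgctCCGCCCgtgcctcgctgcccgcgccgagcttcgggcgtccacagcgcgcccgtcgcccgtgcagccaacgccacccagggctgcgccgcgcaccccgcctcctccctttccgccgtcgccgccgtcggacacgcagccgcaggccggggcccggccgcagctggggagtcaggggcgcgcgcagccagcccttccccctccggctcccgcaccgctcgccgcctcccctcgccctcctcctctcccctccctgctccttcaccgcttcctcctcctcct
Rab6a: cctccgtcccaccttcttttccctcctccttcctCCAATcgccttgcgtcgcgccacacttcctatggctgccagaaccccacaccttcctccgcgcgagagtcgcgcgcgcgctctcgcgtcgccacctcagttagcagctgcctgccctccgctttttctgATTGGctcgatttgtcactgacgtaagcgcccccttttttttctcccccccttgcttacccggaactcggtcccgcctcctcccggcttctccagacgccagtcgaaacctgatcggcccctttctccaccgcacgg
The Rab6b window had 42 CpG dinucleotides and 1 GC box, and the Rab6a window 29 CpG dinucleotides and 2 CCAAT boxes.

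Rab6a itself has 2 annotated transcripts that use alternative versions of exon 4, and these were used differently by the cell types. In human cells the corresponding isoforms differ by a few residues and are credited with partly different transport steps. The 2 coding exons lie next to each other on the plus strand of chromosome 7 (GRCm38, from GENCODE vM21), isoform 1 with the downstream one at chr7:100629838-100629943 and isoform 2 with the upstream one at chr7:100629666-100629771. Both are 106 bases long and differ at 30 positions (71.7% identity), which are in capitals.
Rab6a exon 4 of isoform 1: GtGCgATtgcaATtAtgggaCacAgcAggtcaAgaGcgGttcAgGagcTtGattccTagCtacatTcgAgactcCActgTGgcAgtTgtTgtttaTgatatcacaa
Rab6a exon 4 of isoform 2: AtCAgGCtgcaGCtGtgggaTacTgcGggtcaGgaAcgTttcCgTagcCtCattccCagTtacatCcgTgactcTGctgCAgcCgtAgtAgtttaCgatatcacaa
Reads specific to isoform 1 gave 167, 189 and 181 CPM in DRG neurons and 45.7, 51.5 and 42.4 CPM in OPC. Astrocytes had 32.6, 30.6 and 30.5 CPM. Reads specific to isoform 2 gave 1.39, 1.03 and 2.07 CPM in DRG neurons and 13.48, 12 and 11.2 CPM in OPC. Astrocytes had 6.02, 4.11 and 4.28 CPM. Isoform 1 was therefore highest and isoform 2 lowest in DRG neurons, with no overlap between cell types in either. Isoform 1 was higher in DRG neurons than OPC (log2FC 1.95 ± 0.15, adjusted p = 1.2e-05) and astrocytes (log2FC 2.52 ± 0.15, adjusted p = 3.0e-06), while isoform 2 was lower in DRG neurons than OPC (log2FC −3.03 ± 0.35, adjusted p = 9.3e-05) and astrocytes (log2FC −1.68 ± 0.33, adjusted p = 0.00206). Isoform 2 held 0.830 ± 0.292% of the isoform-specific Rab6a reads in DRG neurons, against 20.9 ± 1.92% in OPC and 13.2 ± 2.04% in astrocytes (SD, n = 3 each), and the balance passed the exact permutation test (p = 0.00357, adjusted p = 0.0107 over 3 genes). This test was chosen after the values were seen. Isoform 1 also has a first exon of 708 bases, against 604 in isoform 2, so the share is not one of molecules, and a change in use of the longer first exon would move it too.

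**Figure D3:**
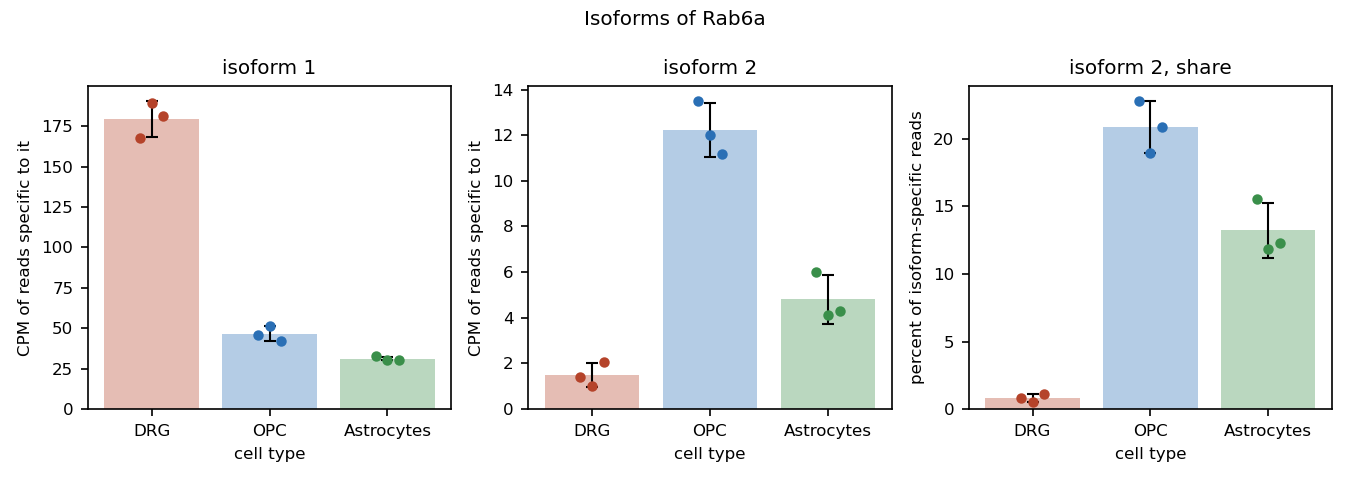
Reads specific to each Rab6a transcript, as CPM for isoform 1 and isoform 2 and as the percent of isoform-specific reads that belong to isoform 2, with points for libraries, bars for means and whiskers for SD (n = 3 each). Isoform 2 takes 0.830% of these reads in DRG neurons, against 20.9% in OPC and 13.2% in astrocytes.

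Rab33a, which serves Golgi-derived vesicles of growing axons, had 40.6, 104 and 48.0 CPM in DRG neurons and 16.1, 19.4 and 19.6 CPM in OPC. Astrocytes had 0.602, 0.332 and 0.498 CPM. Every astrocyte library was below 1 CPM, and the difference passed for DRG neurons over OPC (log2FC 1.80 ± 0.37, adjusted p = 0.00244), DRG neurons over astrocytes (log2FC 7.05 ± 0.48, adjusted p = 4.7e-06) and OPC over astrocytes (log2FC 5.25 ± 0.44, adjusted p = 3.6e-05). Its paralog Rab33b, a Golgi Rab that also binds the autophagy protein Atg16l1, had 74.3, 88.7 and 97.6 CPM in DRG neurons and 64.3, 55.5 and 48.0 CPM in OPC. Astrocytes had 93.3, 75.8 and 87.8 CPM. DRG neurons had more than OPC (log2FC 0.64 ± 0.18, adjusted p = 0.0130). That call ended when DRG replicate 3 was left out (adjusted p = 0.0557). OPC lay below astrocytes (log2FC −0.61 ± 0.18, adjusted p = 0.0181). That call ended when OPC replicate 2 or Astrocytes replicate 1 or 3 was left out (adjusted p = 0.0522 to 0.0571). The ratio of Rab33a over Rab33b was −0.55 ± 0.68 (DRG neurons), −1.57 ± 0.35 (OPC), and −6.47 ± 0.05 (astrocytes) (exact permutation p = 0.00357, adjusted p = 0.00833). Rab39b, whose human form is mutated in X-linked intellectual disability with early parkinsonism, had 198, 155 and 179 CPM in DRG neurons and 70.5, 47.6 and 27.6 CPM in OPC. Astrocytes had 26.6, 33.5 and 35.4 CPM. DRG neurons lay above both glial cultures (log2FC 1.87 ± 0.31, adjusted p = 0.000769 over OPC and log2FC 2.48 ± 0.32, adjusted p = 0.000172 over astrocytes), which overlapped.

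Rab39, its paralog, had 42.5, 37.2 and 40.5 CPM in DRG neurons and 2.66, 2.48 and 1.15 CPM in OPC. Astrocytes had 5.74, 2.71 and 2.87 CPM. Levels in DRG neurons exceeded those of OPC (log2FC 4.25 ± 0.44, adjusted p = 4.8e-05) and astrocytes (log2FC 3.41 ± 0.42, adjusted p = 0.000131), with no overlap. The ratio of Rab39b over Rab39 was 2.13 ± 0.08 (DRG neurons), 4.20 ± 0.26 (OPC), and 2.98 ± 0.74 (astrocytes), lowest in DRG neurons (exact permutation p = 0.0107, adjusted p = 0.0225), and the call ended when any 1 DRG library was left out (adjusted p 0.0600 to 0.0696). Rab2b, of the early secretory pathway, averaged 140.0 ± 14.5 CPM in DRG neurons, 67.2 ± 13.6 CPM in OPC, and 47.7 ± 6.39 CPM in astrocytes. It was higher in DRG neurons than in either (log2FC 1.06 ± 0.19, adjusted p = 0.00133 over OPC and log2FC 1.55 ± 0.20, adjusted p = 0.000158 over astrocytes). Rab2a averaged 437 ± 42.6 CPM in DRG neurons, 299 ± 75.1 CPM in OPC, and 206 ± 12.2 CPM in astrocytes, and its calls over OPC (log2FC 0.55 ± 0.20, adjusted p = 0.0376) and over astrocytes (log2FC 1.08 ± 0.20, adjusted p = 0.00138) came with a call of OPC over astrocytes (log2FC 0.53 ± 0.20, adjusted p = 0.0474). The first ended when DRG replicate 2 or 3, OPC replicate 2 or Astrocytes replicate 2 or 3 was left out (adjusted p = 0.0540 to 0.134), and the last when DRG replicate 2 or 3, OPC replicate 1 or 3 or Astrocytes replicate 1, 2 or 3 was left out (adjusted p = 0.0621 to 0.153). Rab30, a Golgi Rab, averaged 24.1 ± 1.37 CPM in DRG neurons, 7.59 ± 1.68 CPM in OPC, and 14.4 ± 1.66 CPM in astrocytes. DRG neurons were above OPC (log2FC 1.67 ± 0.24, adjusted p = 0.000310) and astrocytes (log2FC 0.74 ± 0.23, adjusted p = 0.0202), the second until DRG replicate 3 or Astrocytes replicate 2 was left out (adjusted p = 0.0656 to 0.0714).

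Rab36, Rab43 and Rab19 were lower in DRG neurons than in astrocytes. Rab36, which helps position late endosomes and lysosomes, had 13.502, 22.1 and 27.3 CPM in DRG neurons and 7.96, 8.24 and 8.13 CPM in OPC. Astrocytes had 76.9, 23.0 and 35.3 CPM. DRG neurons exceeded OPC (log2FC 1.37 ± 0.43, adjusted p = 0.0215), and OPC lay below astrocytes (log2FC −2.47 ± 0.45, adjusted p = 0.00173; −1.85 without Astrocytes replicate 1). Levels in DRG neurons were below those of astrocytes (log2FC −1.10 ± 0.43, adjusted p = 0.0492), but the ranges overlapped and the value fell to −0.48 (adjusted p = 0.228) without Astrocytes replicate 1. The call of DRG neurons over OPC ended when DRG replicate 2 or 3 or OPC replicate 1 or 2 was left out (adjusted p = 0.0535 to 0.0758), and that of DRG neurons over astrocytes when DRG replicate 1, 2 or 3, OPC replicate 1, 2 or 3 or Astrocytes replicate 1 or 3 was left out (adjusted p = 0.0533 to 0.228). Rab43 had under 4 CPM throughout and was lower in DRG neurons (log2FC −1.31 ± 0.41, adjusted p = 0.0212) and in OPC (log2FC −1.31 ± 0.41, adjusted p = 0.0248) than in astrocytes. The first call ended when DRG replicate 1 or 2 or Astrocytes replicate 2 or 3 was left out (adjusted p = 0.0515 to 0.0826), the second when OPC replicate 1 or 2 or Astrocytes replicate 2 or 3 was left out (adjusted p = 0.0610 to 0.0913). Rab19 had 0, 0 and 0.0516 CPM in DRG neurons, 0.0224, 0.163 and 0.168 CPM in OPC, and 0.734, 0.356 and 0.525 CPM in astrocytes, which is 2 reads in DRG neurons in all. The ratio of astrocytes over DRG neurons was 32.1 with a 95% counting interval of 8.59 to 270.5, and the difference passed (log2FC −4.74 ± 1.00, adjusted p = 0.00289; −4.10 without DRG replicate 2 and −7.54 without DRG replicate 3). It was also lower in OPC than astrocytes (log2FC −2.17 ± 0.76, adjusted p = 0.0391), until OPC replicate 1, 2 or 3 or Astrocytes replicate 1 or 3 was left out (adjusted p = 0.0608 to 0.103). Rab1a, Rab1b and Rab34 passed no comparison, at 254 to 440.2 CPM for Rab1a and 184 to 392 CPM for Rab1b, the Rabs of export from the endoplasmic reticulum, and at 1.39 to 8.49 CPM for Rab34. Rab18 had 13 transcript-specific reads in all and was not tested.

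Early endosome Rabs split by paralog. Of 8 tested, 3 were higher and 3 lower in DRG neurons than in OPC, and 2 were higher and 3 lower than in astrocytes. These calls are 75.0% and 62.5%, beside 59.5% and 60.2% of all genes. Between OPC and astrocytes none passed in edgeR, where 2 had an unadjusted p under 0.05, and 4 passed in DESeq2. Of all genes, 51.8% passed this comparison in edgeR. Rab31, which moves cargo between the trans-Golgi network and endosomes, had 63.0, 36.5 and 34.1 CPM in DRG neurons and 1018, 960.3 and 1225 CPM in OPC. Astrocytes had 1126, 1525 and 1339.7 CPM. Both glial cultures lay far above every DRG library and overlapped each other (log2FC −4.58 ± 0.30, adjusted p = 6.0e-06 for DRG neurons over OPC and log2FC −4.90 ± 0.31, adjusted p = 3.4e-06 for DRG neurons over astrocytes). In fold terms that was 24.0-fold and 29.9-fold lower in DRG neurons. Its nearest paralog Rab22a, an endosomal Rab, had 49.8, 51.6 and 58.5 CPM in DRG neurons and 47.2, 43.0 and 50.2 CPM in OPC. Astrocytes had 53.0, 71.3 and 59.5 CPM. It passed no comparison, and the ratio of Rab22a over Rab31 was 0.31 ± 0.58 (DRG neurons), −4.49 ± 0.09 (OPC), and −4.43 ± 0.05 (astrocytes) (exact permutation p = 0.0143, adjusted p = 0.0250).

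The promoter of Rab31, the leading Rab mRNA of both glial cultures per length, lies at chr17:65772703-65773002 on the minus strand and is shown with the same marks.
Rab31: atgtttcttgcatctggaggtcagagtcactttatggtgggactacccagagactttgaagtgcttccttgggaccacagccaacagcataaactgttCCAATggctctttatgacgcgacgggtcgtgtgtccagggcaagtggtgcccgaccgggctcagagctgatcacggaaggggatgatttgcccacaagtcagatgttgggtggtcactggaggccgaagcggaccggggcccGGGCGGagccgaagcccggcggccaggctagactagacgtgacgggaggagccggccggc
It held 19 CpG dinucleotides, 1 GC box and 1 CCAAT box.

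The 3 Rab5 paralogs, which drive fusion of early endosomes, differed in direction. Rab5a had 200.5, 195 and 204 CPM in DRG neurons and 158, 116 and 80.6 CPM in OPC. Astrocytes had 169, 174 and 171 CPM. The gene was more abundant in DRG neurons than OPC (log2FC 0.76 ± 0.22, adjusted p = 0.0163), until OPC replicate 2 was left out (adjusted p = 0.0522), and did not pass against astrocytes (log2FC 0.22 ± 0.22, adjusted p = 0.417). Rab5b averaged 447 ± 45.5 CPM in DRG neurons, 191 ± 22.2 CPM in OPC, and 252 ± 45.4 CPM in astrocytes. DRG neurons stood above OPC (log2FC 1.23 ± 0.19, adjusted p = 0.000458) and astrocytes (log2FC 0.83 ± 0.19, adjusted p = 0.00398). Rab5c had 167, 185 and 179 CPM in DRG neurons and 329, 261 and 354 CPM in OPC. Astrocytes had 329, 269 and 283 CPM. Every DRG library lay below every glial one (log2FC −0.83 ± 0.17, adjusted p = 0.00238 for DRG neurons over OPC and log2FC −0.73 ± 0.17, adjusted p = 0.00466 for DRG neurons over astrocytes). The ratio of Rab5a over Rab5c was 0.18 ± 0.10 (DRG neurons), −1.45 ± 0.59 (OPC), and −0.77 ± 0.17 (astrocytes), above 0 in each DRG library and below 0 in each glial one (exact permutation p = 0.00357, adjusted p = 0.00833). That of Rab5a over Rab5b did not pass (exact permutation p = 0.193, adjusted p = 0.213).

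Rab24, linked to autophagy, averaged 115 ± 32.2 CPM in DRG neurons, 49.4 ± 4.91 CPM in OPC, and 45.3 ± 0.546 CPM in astrocytes. Its level in DRG neurons was above that of OPC (log2FC 1.21 ± 0.22, adjusted p = 0.00111) and astrocytes (log2FC 1.34 ± 0.22, adjusted p = 0.000658). Rab21, which binds integrins on their way into the cell, ranged from 81.5 to 121 CPM and passed no comparison. Rab20, a Rab of phagosomes, had 0.372, 0.232 and 0.232 CPM in DRG neurons and 0.872, 1.45 and 1.83 CPM in OPC. Astrocytes had 2.16, 0.617 and 0.359 CPM. DRG neurons lay below OPC (log2FC −2.31 ± 0.69, adjusted p = 0.0164) and astrocytes (log2FC −1.93 ± 0.68, adjusted p = 0.0346), where it overlapped and fell to −0.83 (adjusted p = 0.193) without Astrocytes replicate 1, the library richest in microglia markers. The call against OPC ended when DRG replicate 2 or 3 or OPC replicate 3 was left out (adjusted p = 0.0579 to 0.0774), and that against astrocytes when DRG replicate 1, 2 or 3, OPC replicate 2 or 3 or Astrocytes replicate 1 was left out (adjusted p = 0.0527 to 0.193). Rab17, an epithelial Rab, had no read in DRG neurons, where 3 reads would be 0.0632 to 0.102 CPM, and at most 0.0894 CPM elsewhere, and was not tested.

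Among the Rabs of recycling and surface delivery, 3 of 12 tested were higher in DRG neurons than in OPC and 5 lower, 5 were higher and 3 lower than in astrocytes, and 5 were higher and 1 lower in OPC than in astrocytes. The 66.7% called against OPC, and as many against astrocytes, lie near the 59.5% and 60.2% of all genes. Rab11a, the Rab of recycling endosomes, had 379.7, 393 and 384 CPM in DRG neurons and 271, 188 and 187 CPM in OPC. Astrocytes had 129, 127 and 122 CPM. It stepped down from one culture to the next without overlap (log2FC 0.84 ± 0.18, adjusted p = 0.00288 for DRG neurons over OPC, log2FC 1.62 ± 0.18, adjusted p = 7.6e-05 for DRG neurons over astrocytes and log2FC 0.77 ± 0.18, adjusted p = 0.00574 for OPC over astrocytes). Its paralog Rab11b had 144, 206 and 231 CPM in DRG neurons, 233, 180.3 and 218 CPM in OPC, and 290.3, 185 and 233 CPM in astrocytes, with overlapping groups and no call. The ratio of Rab11b over Rab11a was −1.02 ± 0.34 (DRG neurons), −0.02 ± 0.22 (OPC), and 0.88 ± 0.32 (astrocytes), lowest in DRG neurons and highest in astrocytes (exact permutation p = 0.00357, adjusted p = 0.00833). Rab4b, of the fast recycling route, had 119, 211 and 194 CPM in DRG neurons and 55.6, 47.8 and 67.9 CPM in OPC. Astrocytes had 28.1, 39.8 and 39.6 CPM. DRG neurons were above OPC (log2FC 1.61 ± 0.26, adjusted p = 0.000611) and astrocytes (log2FC 2.29 ± 0.27, adjusted p = 9.3e-05). Rab4a had 62.1, 49.5 and 45.5 CPM in DRG neurons and 32.4, 23.1 and 30.1 CPM in OPC. Astrocytes had 30.7, 23.9 and 32.3 CPM. It was higher in DRG neurons by less (log2FC 0.88 ± 0.22, adjusted p = 0.00675 over OPC and log2FC 0.85 ± 0.22, adjusted p = 0.00755 over astrocytes). Their ratio, Rab4a over Rab4b, was −1.70 ± 0.66 (DRG neurons), −0.99 ± 0.20 (OPC), and −0.30 ± 0.43 (astrocytes) (exact permutation p = 0.0250, adjusted p = 0.0375), and the call ended when any 1 of 7 libraries was left out, all but DRG replicate 1 and Astrocytes replicate 2 (adjusted p 0.0696 to 0.119).

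Rab12, which sends transferrin receptors to lysosomes and is a substrate of the kinase Lrrk2, had 15.2, 12.1 and 14.8 CPM in DRG neurons and 160.3, 141 and 156 CPM in OPC. Astrocytes had 115, 125 and 126 CPM. Every DRG library lay far below every glial library, by 10.8-fold against OPC (log2FC −3.44 ± 0.17, adjusted p = 1.7e-06) and 8.67-fold against astrocytes (log2FC −3.12 ± 0.16, adjusted p = 1.7e-06). Rab13, a Rab of cell junctions, had 4.06, 4.32 and 5.09 CPM in DRG neurons and 6.35, 8.16 and 7.68 CPM in OPC. Astrocytes had 31.2, 34.5 and 34.1 CPM. The gene was scarcer in DRG neurons than astrocytes (log2FC −2.89 ± 0.23, adjusted p = 1.1e-05) and in OPC than in astrocytes (log2FC −2.17 ± 0.22, adjusted p = 8.5e-05). The smaller difference of DRG neurons from OPC (log2FC −0.72 ± 0.21, adjusted p = 0.0164) ended when DRG replicate 2 or OPC replicate 2 or 3 was left out (adjusted p = 0.0547 to 0.131). Rab8a, which delivers vesicles to the surface and the cilium, averaged 52.1 ± 8.13 CPM in DRG neurons, 135 ± 17.8 CPM in OPC, and 109.7 ± 4.46 CPM in astrocytes. DRG neurons stood below OPC (log2FC −1.37 ± 0.17, adjusted p = 0.000153) and astrocytes (log2FC −1.07 ± 0.17, adjusted p = 0.000610). Rab8b had 59.2, 56.7 and 56.5 CPM in DRG neurons, 205, 218 and 109.9 CPM in OPC, and 93.9, 78.5 and 58.6 CPM in astrocytes, with OPC replicate 3 below its group. DRG neurons had less than OPC (log2FC −1.63 ± 0.28, adjusted p = 0.000847), and OPC lay above astrocytes (log2FC 1.20 ± 0.27, adjusted p = 0.00544), and the ratio of Rab8b over Rab8a did not pass (exact permutation p = 0.150, adjusted p = 0.175), but reached the smallest p the design allows without OPC replicate 3 (exact permutation p = 0.00357, adjusted p = 0.00833).

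Rab15, an endosomal Rab found in neural tissue, had 36.8, 38.5 and 40.3 CPM in DRG neurons and 31.1, 55.1 and 58.0 CPM in OPC. Astrocytes had 13.8, 3.89 and 8.38 CPM. DRG neurons and OPC overlapped, and both lay above astrocytes (log2FC 2.14 ± 0.43, adjusted p = 0.00218 for DRG neurons and log2FC 2.46 ± 0.44, adjusted p = 0.00152 for OPC). Rab35, which returns cargo from endosomes to the surface, averaged 92.5 ± 2.98 CPM in DRG neurons, 154 ± 16.6 CPM in OPC, and 101 ± 4.78 CPM in astrocytes. Levels in DRG neurons were below those of OPC (log2FC −0.73 ± 0.14, adjusted p = 0.00193), and OPC lay above astrocytes (log2FC 0.60 ± 0.14, adjusted p = 0.00704), the second until OPC replicate 3 was left out (adjusted p = 0.0589). Rab14, between Golgi and endosomes, averaged 347 ± 14.4 CPM in DRG neurons, 378 ± 76.8 CPM in OPC, and 248 ± 29.7 CPM in astrocytes. It was higher in DRG neurons (log2FC 0.48 ± 0.18, adjusted p = 0.0466) and in OPC (log2FC 0.61 ± 0.19, adjusted p = 0.0219) than in astrocytes. The first call ended when DRG replicate 1, 2 or 3, OPC replicate 2 or Astrocytes replicate 2 or 3 was left out (adjusted p = 0.0617 to 0.141), the second when OPC replicate 1 or Astrocytes replicate 2 or 3 was left out (adjusted p = 0.0680 to 0.0746). Rab10, known from delivery of glucose transporters and from neurites, ranged from 303 to 554 CPM and passed no comparison. Rab25, the epithelial member of the Rab11 group, had no read in DRG neurons and at most 0.102 CPM elsewhere, and was not tested.

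The Rabs of late endosomes, lysosomes and related organelles included Rab29, Rab7b and Rab32, which were all far higher in astrocytes than in DRG neurons. Of 7 tested, 2 were higher and 3 lower in DRG neurons than in OPC, 2 were higher and 4 lower than in astrocytes, and 1 was higher and 3 lower in OPC than in astrocytes. These calls are 71.4%, 85.7% and 57.1%, beside 59.5%, 60.2% and 51.8% of all genes. Rab29, which recruits Lrrk2 to membranes in human cells, had 4.77, 4.29 and 4.13 CPM in DRG neurons and 1.45, 1.59 and 2.86 CPM in OPC. Astrocytes had 63.2, 82.7 and 142 CPM. Every astrocyte library lay above all others (log2FC −4.45 ± 0.39, adjusted p = 2.1e-05 for DRG neurons over astrocytes and log2FC −5.61 ± 0.42, adjusted p = 2.1e-05 for OPC over astrocytes). It was slightly higher in DRG neurons than OPC (log2FC 1.16 ± 0.36, adjusted p = 0.0191), with 1.78 without OPC replicate 3, and this ended when OPC replicate 1 or 2 was left out (adjusted p = 0.0654 to 0.0722). Rab7b, which works between endosomes and the trans-Golgi network, had 1.18, 0.547 and 0.904 CPM in DRG neurons and 2.86, 4.25 and 7.77 CPM in OPC. Astrocytes had 59.4, 25.8 and 44.2 CPM. DRG neurons lay below OPC (log2FC −2.51 ± 0.49, adjusted p = 0.00182; −1.79 without OPC replicate 3) and astrocytes (log2FC −5.63 ± 0.55, adjusted p = 3.5e-05), and OPC lay below astrocytes (log2FC −3.12 ± 0.48, adjusted p = 0.000750; −3.75 without OPC replicate 3). Rab32, which acts in melanosome formation and on mitochondria, had 0.981, 1.20 and 1.83 CPM in DRG neurons and 6.66, 2.99 and 3.75 CPM in OPC. Astrocytes had 49.1, 39.5 and 39.4 CPM. The gene was scarcer in DRG neurons than OPC (log2FC −1.73 ± 0.36, adjusted p = 0.00278) and astrocytes (log2FC −4.99 ± 0.41, adjusted p = 1.4e-05), and OPC lay below astrocytes (log2FC −3.25 ± 0.38, adjusted p = 0.000165).

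Markers of microglia, cells rich in lysosomes, were found in these cultures and are set beside the 3 genes. The 12 markers summed to 19.4, 11.8 and 9.94 CPM in DRG neurons and 18.8, 60 and 215.1 CPM in OPC. Astrocytes had 2879, 498 and 464 CPM. Of the 12, those with at least 5 CPM on average numbered 1 in DRG neurons, against 5 in OPC and 9 in astrocytes, and Ptprc had no read in DRG neurons or OPC. Within astrocytes Rab29 was lowest in replicate 1, at 63.2 CPM, where the microglia markers were highest. Rab7b and Rab32 were highest there, at 59.4 and 49.1 CPM, by far less than the markers. In OPC Rab7b and Rab29 were highest in replicate 3, as were the markers, while Rab32 was highest in replicate 1, where they were lowest. The part of microglia in these results was not tested.

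**Figure D4:**
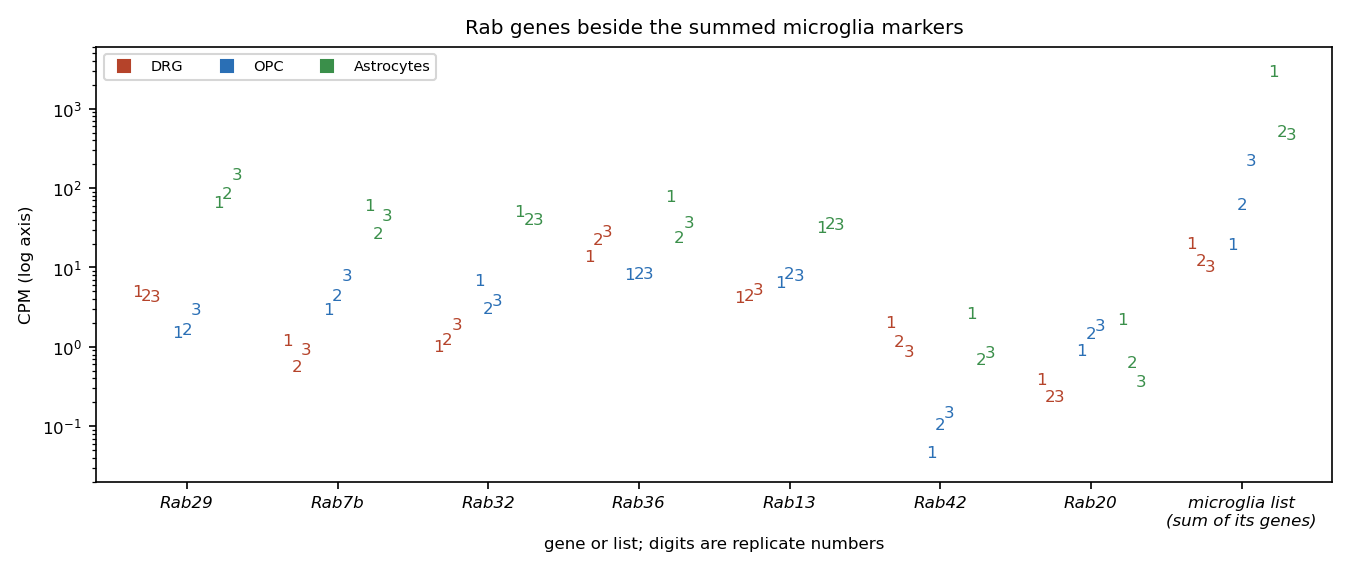
Level in every library (CPM, log axis, digits for replicate numbers) of Rab genes that differ between astrocytes and another culture, with the sum of 12 microglia markers at the right. The markers lie at 2879 CPM in Astrocytes replicate 1 and 498 and 464 CPM in replicates 2 and 3, while Rab29 is highest in replicate 3 and Rab42, Rab36 and Rab20 are highest in replicate 1.

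Rab7, the main Rab of lysosome fusion, had 217, 229 and 231 CPM in DRG neurons and 203, 185 and 238 CPM in OPC. Astrocytes had 165, 171 and 178 CPM. It was slightly higher in DRG neurons than astrocytes (log2FC 0.40 ± 0.15, adjusted p = 0.0426), until DRG replicate 2 or 3 or Astrocytes replicate 1, 2 or 3 was left out (adjusted p = 0.0960 to 0.105). The ratio of Rab7b over Rab7 was −7.39 ± 0.38 (DRG neurons), −5.35 ± 0.54 (OPC), and −2.06 ± 0.62 (astrocytes) (exact permutation p = 0.00357, adjusted p = 0.00833). Rab9, which returns mannose 6-phosphate receptors to the Golgi, had 52.0, 42.8 and 42.5 CPM in DRG neurons and 76.0, 62.4 and 64.0 CPM in OPC. Astrocytes had 76.6, 65.4 and 74.2 CPM. DRG neurons had less than OPC (log2FC −0.56 ± 0.17, adjusted p = 0.0157), until DRG replicate 2 or 3 or OPC replicate 3 was left out (adjusted p = 0.0624 to 0.121), and less than astrocytes (log2FC −0.66 ± 0.17, adjusted p = 0.00727). Rab9b went the other way, with 68.3, 65.4 and 71.5 CPM in DRG neurons and 20.5, 16.2 and 6.35 CPM in OPC. Astrocytes had 0.846, 0.641 and 1.52 CPM. DRG neurons had more than OPC (log2FC 2.26 ± 0.44, adjusted p = 0.00185) and astrocytes (log2FC 6.10 ± 0.53, adjusted p = 1.9e-05), and OPC lay above astrocytes (log2FC 3.84 ± 0.48, adjusted p = 0.000255). The ratio of Rab9b over Rab9 was 0.58 ± 0.18 (DRG neurons), −2.34 ± 0.78 (OPC), and −5.63 ± 0.37 (astrocytes), with no overlap between the cultures (exact permutation p = 0.00357, adjusted p = 0.00833). Rab38, the partner of Rab32 in melanosome formation, had 0.305, 0.400 and 0.620 CPM in DRG neurons and 0.447, 1.12 and 0.722 CPM in OPC. Astrocytes had 0.169, 0.404 and 0.359 CPM. It passed no comparison, though OPC over astrocytes (log2FC 1.30 ± 0.52, adjusted p = 0.0592) reached an adjusted p of 0.0408 without OPC replicate 1. The ratio of Rab38 over Rab32 was −0.95 ± 0.09 (DRG neurons), −1.94 ± 0.91 (OPC), and −5.74 ± 0.41 (astrocytes) (exact permutation p = 0.00357, adjusted p = 0.00833).

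The last group gathers Rabs of the cilium and members with less settled roles. Of 6 tested, 1 was higher and 4 were lower in DRG neurons than in OPC, 1 was higher and 2 lower than in astrocytes, and 3 were higher and 1 lower in OPC than in astrocytes. Rab44, a large member with a domain that binds calcium in addition to its Rab domain, was highest in OPC, with 0.102, 0.0632 and 0.207 CPM in DRG neurons and 5.83, 9.32 and 9.31 CPM in OPC. Astrocytes had 0.0376, 0 and 0.0829 CPM. Every OPC library lay above all others (log2FC −6.02 ± 0.70, adjusted p = 9.5e-05 for DRG neurons over OPC and log2FC 7.62 ± 0.77, adjusted p = 8.5e-05 for OPC over astrocytes), and the sizes rest on 14 reads in DRG neurons and 5 in astrocytes. They became −6.62 without DRG replicate 3 and 8.44 without Astrocytes replicate 3. Rab28, a Rab of the photoreceptor cilium in human disease, had 29.1, 36.5 and 41.0 CPM in DRG neurons and 74.6, 81.1 and 94.1 CPM in OPC. Astrocytes had 101, 95.8 and 96.4 CPM. Its level in DRG neurons was below that of OPC (log2FC −1.23 ± 0.18, adjusted p = 0.000331) and astrocytes (log2FC −1.46 ± 0.18, adjusted p = 0.000125). Rab23, a regulator of Hedgehog signals at the cilium, averaged 1.18 ± 0.257 CPM in DRG neurons, 2.46 ± 0.663 CPM in OPC, and 3.49 ± 1.30 CPM in astrocytes. DRG neurons were below astrocytes (log2FC −1.55 ± 0.41, adjusted p = 0.00896) and OPC (log2FC −1.05 ± 0.40, adjusted p = 0.0475). The call against OPC ended when DRG replicate 1, 2 or 3, OPC replicate 2 or 3 or Astrocytes replicate 2 or 3 was left out (adjusted p = 0.0564 to 0.173).

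Rab40b, whose SOCS box recruits a ubiquitin ligase, had 2.91, 2.04 and 0.981 CPM in DRG neurons and 8.2, 5.47 and 5.77 CPM in OPC. Astrocytes had 2.01, 1.35 and 0.691 CPM. Levels in DRG neurons were below those of OPC (log2FC −1.72 ± 0.50, adjusted p = 0.0154), until DRG replicate 3 or OPC replicate 3 was left out (adjusted p = 0.0506 to 0.0512), and OPC lay above astrocytes (log2FC 2.25 ± 0.51, adjusted p = 0.00554). Its paralog Rab40c had 61.4, 47.9 and 43.6 CPM in DRG neurons and 52.2, 43.3 and 56.1 CPM in OPC. Astrocytes had 33.6, 29.0 and 28.6 CPM. It was higher in DRG neurons (log2FC 0.75 ± 0.19, adjusted p = 0.00845) and in OPC (log2FC 0.73 ± 0.19, adjusted p = 0.0113) than in astrocytes, the second until OPC replicate 3 was left out (adjusted p = 0.0814), and the first had an adjusted p of 0.0625 with library size alone as the scaling. The ratio of Rab40b over Rab40c was −4.44 ± 0.39 (DRG neurons), −2.88 ± 0.29 (OPC), and −4.12 ± 0.44 (astrocytes) (exact permutation p = 0.0143, adjusted p = 0.0250), and its adjusted p was 0.0563 without DRG replicate 3. Rab42 had 2.00, 1.14 and 0.852 CPM in DRG neurons and 0.0447, 0.102 and 0.144 CPM in OPC. Astrocytes had 2.54, 0.665 and 0.829 CPM. DRG neurons stood above OPC (log2FC 3.74 ± 0.72, adjusted p = 0.00170; 4.35 without OPC replicate 3), and OPC lay below astrocytes (log2FC −3.77 ± 0.71, adjusted p = 0.00220; −2.91 without Astrocytes replicate 1).

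Across the 21 paralog pairs, 14 changed their balance between the cultures. Other pairs of genes were not tested, so this count has no background value, and over 50% of all genes were called in each comparison. The 7 that did not pass were Rab1a over Rab1b, Rab2a over Rab2b, Rab5a over Rab5b, Rab8b over Rab8a, Rab26 over Rab37, Rab27b over Rab27a and Rab34 over Rab36, with adjusted p between 0.0650 and 0.796. Of these, 6 passed without 1 library: Rab1a over Rab1b without OPC replicate 1 (adjusted p = 0.00938), Rab8b over Rab8a without OPC replicate 3 (0.00833) and Rab34 over Rab36 without Astrocytes replicate 2 (0.0167). Without Astrocytes replicate 1, Rab2a over Rab2b and Rab27b over Rab27a passed (exact permutation adjusted p = 0.0250 each), and without DRG replicate 1, Rab26 over Rab37 (0.0482). The ratio of Rab1a over Rab1b was 0.69 ± 0.29 (DRG neurons), 0.13 ± 0.77 (OPC), and 0.32 ± 0.09 (astrocytes). Between 10 and 14 pairs passed when 1 library was left out.

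**Figure D5:**
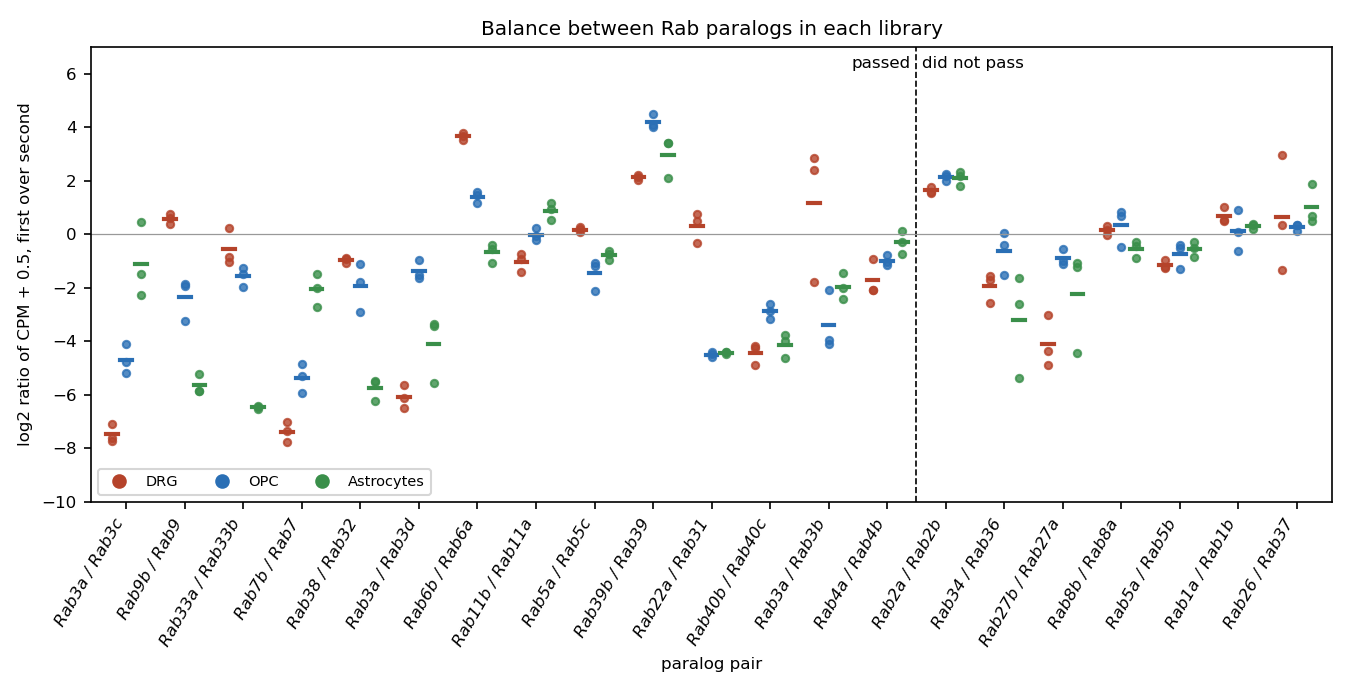
Log2 ratio of 2 Rab paralogs, each as CPM plus 0.5, in each library, with bars for the mean of each culture and the pairs that passed the exact permutation test left of the dashed line. The ratios of Rab9b over Rab9, Rab33a over Rab33b and Rab6b over Rab6a fall from DRG neurons through OPC to astrocytes, and those of Rab7b over Rab7 and Rab11b over Rab11a climb.

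The 60 RefSeq promoters of 48 Rab genes were dense in CpG, with a median of 19.5 per 300 bases against 7.0 over all 32841 promoters. The latter cover 27018 genes, whether expressed here or not, while nearly all Rab genes had enough counts to be tested. The sets are therefore not matched, here or for the motifs that follow. The GC box GGGCGG stood on either strand in 41 of 60 (68.3%), against 35.7% of all promoters, and the CCAAT box in 26 (43.3%), against 37.4%. The TATA box TATAAA stood in 4 (6.67%), against 13.6%, the E-box CACGTG in 6 (10%), against 7.15%, the cAMP response element TGACGTCA in 2 (3.33%), against 1.79%, and the AP-1 site TGAGTCA in 3 (5%), against 5.20%. Several genes have more than 1 promoter here, so the 60 are not independent, and a match describes letters only.

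Genes of proteins that load, unload and read Rabs, and of their relatives, were compared through 4 lists. Rims3 and Rims4 are listed as members of the RIM family, and whether their proteins bind a Rab was not tested. Of the effectors, 28 of 52 tested were higher in DRG neurons than in OPC and 4 lower, 20 were higher and 13 lower than in astrocytes, and 9 were higher and 17 lower in OPC than in astrocytes. In all, 61.5% were called against OPC and 63.5% against astrocytes, close to the 59.5% and 60.2% of all genes, while the share higher in DRG neurons was 53.9% and 38.5%, beside 28.4% and 27.4% of all genes. Rims3, of the RIM family of presynaptic proteins, averaged 173 ± 38.1 CPM in DRG neurons, 16.1 ± 5.03 CPM in OPC, and 1.51 ± 0.339 CPM in astrocytes. Its level in DRG neurons was above that of OPC (log2FC 3.43 ± 0.31, adjusted p = 2.5e-05) and astrocytes (log2FC 6.83 ± 0.37, adjusted p = 1.9e-06). Rph3a, the Rab3 effector rabphilin, averaged 105 ± 16.4 CPM in DRG neurons, 45.1 ± 30.3 CPM in OPC, and 0.118 ± 0.0412 CPM in astrocytes. DRG neurons were above astrocytes (log2FC 9.80 ± 0.63, adjusted p = 3.8e-06). Rims4 averaged 1.80 ± 0.715 CPM in DRG neurons, 13.46 ± 3.94 CPM in OPC, and 0.0682 ± 0.0623 CPM in astrocytes. DRG neurons stood below OPC (log2FC −2.91 ± 0.52, adjusted p = 0.00117). Myo5b, a motor that binds Rab11, was lower in DRG neurons than astrocytes (log2FC −5.27 ± 0.71, adjusted p = 0.000219), as was Rilp, the Rab7 effector that recruits dynein (log2FC −3.67 ± 0.60, adjusted p = 0.000718). The count of effectors higher in OPC than in astrocytes was 5 without OPC replicate 1.

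Of 34 exchange factors tested, 8 were higher in DRG neurons than in OPC and 14 lower, 10 were higher and 13 lower than in astrocytes, and 7 were higher and 5 lower in OPC than in astrocytes. In DRG neurons 23.5% were higher and 41.2% lower than OPC, beside 28.4% and 31.1% of all genes, and 29.4% higher and 38.2% lower than astrocytes, beside 27.4% and 32.8%. For OPC against astrocytes 35.3% of exchange factors were called, beside 51.8% of all genes. The count higher in DRG neurons was 5 against OPC without OPC replicate 2, and against astrocytes it was 4 without Astrocytes replicate 3, 5 without DRG replicate 2 and 6 without DRG replicate 3. Sbf2, an exchange factor for Rab28 mutated in a human demyelinating neuropathy, averaged 51.5 ± 4.39 CPM in DRG neurons, 422 ± 86.8 CPM in OPC, and 209 ± 14.8 CPM in astrocytes. DRG neurons lay below OPC (log2FC −3.03 ± 0.20, adjusted p = 5.8e-06) and astrocytes (log2FC −2.02 ± 0.19, adjusted p = 2.9e-05). Dennd5a, which activates Rab39, averaged 185 ± 3.92 CPM in DRG neurons, 847 ± 189.7 CPM in OPC, and 560.4 ± 17.7 CPM in astrocytes. Its level in DRG neurons was below that of OPC (log2FC −2.20 ± 0.19, adjusted p = 2.2e-05). Of 33 GAPs, 11 were higher in DRG neurons than in OPC and 8 lower, 13 were higher and 4 lower than in astrocytes, and 10 were higher and 4 lower in OPC than in astrocytes. In all, 57.6% were called against OPC and 51.5% against astrocytes, at or under the 59.5% and 60.2% of all genes. For OPC against astrocytes 42.4% of GAPs were called, beside 51.8% of all genes. The 8 lower than in OPC became 4 without DRG replicate 2, DRG replicate 3 or OPC replicate 3 and 5 without OPC replicate 1, the 4 lower than in astrocytes became 2 without DRG replicate 2, and the 10 higher in OPC became 6 without OPC replicate 3. Tbc1d30, a GAP of this family, averaged 72.6 ± 8.01 CPM in DRG neurons, 13.2 ± 3.03 CPM in OPC, and 1.35 ± 0.807 CPM in astrocytes (DRG neurons over astrocytes log2FC 5.74 ± 0.45, adjusted p = 1.1e-05). Of the 7 genes of GDI, prenylation and escort tested, 3 were higher in DRG neurons than in OPC and 4 than in astrocytes, and 1 was lower in OPC than in astrocytes. The 42.9% called against OPC and 57.1% against astrocytes lie under the 59.5% and 60.2% of all genes. None was lower in DRG neurons, beside 31.1% and 32.8% of all genes. All those called were higher there, beside 28.4% and 27.4% of all genes. Between OPC and astrocytes 14.3% were called, beside 51.8% of all genes. The count higher in DRG neurons than in OPC was 5 without OPC replicate 3 and 6 in DESeq2. Between OPC and astrocytes 1 was higher without Astrocytes replicate 1, and 2 were lower without DRG replicate 1 or OPC replicate 3.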

How the data were processed

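Raw read counts per RefSeq accession were deposited by the authors for 9 libraries made from polyA RNA with a stranded kit, per the labels' protocols. Alignment to mm10 with TopHat2 and counting with HTSeq come from the submitters' processing notes, while versions, counting mode and strand setting are not given in the sources used here. Rows without a gene held 37.1% to 46.9% of reads, of which reads with more than 1 possible accession were 22.0% to 24.7% of the total; genes with several accessions are therefore under-counted, and antisense reads may not be separated. Of 33787 accessions, 33315 were named from RefSeq, 193 from GENCODE vM21 and 279 were left unnamed. Counts were summed per gene and fitted in edgeR 4.0.16 (R 4.3.3, limma 3.58.1) over all 9 libraries with TMM scaling, filterByExpr at a minimum count of 10, a quasi-likelihood test and Benjamini-Hochberg adjustment at a threshold of 0.05. Standard errors were derived from the log2 fold change and its F value. DESeq2 1.42.0 was an alternative. The fit was tested on simulated data. All 59 members are described, by role. Members and lists were chosen with earlier results of these data known. Intervals and floors cover counting error only.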

Additional observations from a re-analysis of the deposited data

How the results depend on the processing

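Over 10 kinds of alternative (another scaling, DESeq2, no filter, only the compared libraries, a replicate block, a length correction, the most abundant accession, and leaving out libraries), 81 of the 108 calls of Rab genes were kept under every one and 27 ended under at least 1. Signs were compared for these calls and for the comparisons of Rab3b, Rab27b, Rab37, Rab38 and Rab44 that did not pass. Among them, only the value of Rab3b for DRG neurons over astrocytes changed sign. It was −1.03 without DRG replicate 1, in a range of −1.03 to 2.00 over the libraries left out. The signs of other comparisons that did not pass were not examined. Leaving out 1 library gave 34 to 41 Rab genes called for DRG neurons against OPC (40 with all), 34 to 39 for DRG neurons against astrocytes (39) and 23 to 31 for OPC against astrocytes (29). With library size alone as the scaling, calls of Rab2a, Rab7, Rab14, Rab30 and Rab40c ended; RLE size factors ended calls of Rab2a, Rab9, Rab13, Rab23 and Rab36, and DESeq2 of Rab2a and Rab23. With library size alone the median of all genes moved by −0.26 for DRG neurons over astrocytes, −0.15 for DRG neurons over OPC and −0.10 for OPC over astrocytes. Whether replicate numbers pair the samples could not be settled. The deviations of same-numbered libraries correlated between −0.0357 and 0.128, and 1 of 9 pairs was over 0.1. Those of differently numbered libraries correlated between −0.13 and 0.0777. With 3 libraries of each cell type, such values cannot exclude a pairing. The replicate block gave 39, 36 and 27 called Rab genes in the 3 comparisons. Between 10 and 14 paralog pairs passed with 1 library left out. Among regulators, leaving out 1 library gave 3 to 5 genes of GDI, prenylation and escort higher in DRG neurons than in OPC (3 with all, 6 in DESeq2), 0 to 1 higher (0) and 1 to 2 lower (1) in OPC than in astrocytes. It gave 5 to 8 GEFs higher in DRG neurons than in OPC (8) and 4 to 12 than in astrocytes (10). GAPs lower in DRG neurons numbered 4 to 8 against OPC (8) and 2 to 6 against astrocytes (4), GAPs higher in OPC than in astrocytes 6 to 11 (10), and effectors higher in OPC than in astrocytes 5 to 10 (9). The cause of these shifts was not tested. Low counts limit Rab19, Rab20, Rab26, Rab37, Rab42 and Rab44.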

Other observations

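Rab7b and Rab29, both highest in astrocytes, lie near each other on chromosome 1 (GRCm38), Rab7b at chr1:131688681-131715443 and Rab29 at chr1:131867210-131872887, 151766 bases apart with 3 genes between them. Of these, Pm20d1 averaged 0.861 CPM in DRG neurons, 0.0723 CPM in OPC and 15 CPM in astrocytes, and Slc41a1, a magnesium transporter, averaged 35.5, 57.4 and 334 CPM in the same order. Both were lower in DRG neurons than astrocytes (log2 fold change −4.14 for Pm20d1 and −3.24 for Slc41a1) and lower in OPC than in astrocytes (−7.62 and −2.54). Of all genes tested, 32.8% were called lower in DRG neurons than astrocytes and 25.5% lower in OPC than astrocytes. Against OPC, DRG neurons had more Pm20d1 and Rab29 (3.48 and 1.16) and less Slc41a1 and Rab7b (−0.69 and −2.51). The third, Slc26a9, was not tested. On the outer sides, Ctse, the protease cathepsin E, averaged 0.0113 CPM in DRG neurons, 0.176 CPM in OPC and 20.4 CPM in astrocytes, and Nucks1 averaged 4.65, 15 and 10.2 CPM. It too was lower in DRG neurons than astrocytes (log2 fold change −1.12, adjusted p = 0.0109), and it did not pass for OPC over astrocytes (0.56, adjusted p = 0.149 in edgeR's quasi-likelihood test). The locus was looked at after the values of both Rab genes were seen.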
